A study of Mus musculus with 6 samples.

Results

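Transcripts of 3 genes tied to small RNAs were followed in TM4 cells, an immortalized mouse line with an origin in Sertoli cells, which support sperm development in the testis. They were Dleu2, a long non-coding RNA gene that carries microRNAs, and Dgcr8 and Prkra, which encode proteins that help cut microRNA precursors. The genes were found by symbol in a table the authors deposited, which lists 2415 of the 45269 probes on an array as called, and each gene had 1 probe there; the table names 2004 genes in all. Because that table was selected on the same arrays, the difference between the groups in these 3 genes is given as a description with no p-value. Where the text or a plot says that they passed a threshold, that too is a description, since their selection used the same contrast.

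Treated cells received 4 pooled small interfering RNAs (siRNAs) against Gata4, which encodes a DNA-binding protein important in gonads and heart, and control cells received a non-targeting (NT) siRNA. There were 3 samples in each group, Gata4 siRNA replicates 1 to 3 and NT siRNA replicates 1 to 3, each on its own array of an Illumina MouseWG-6 BeadChip. All 6 samples were TM4 cells transfected without antibiotics with a lipid reagent at a final 0.1 µM siRNA, so a comparison of either group with untransfected cells was not made. The series' design text counts samples 3 to 6 as controls, which cannot hold with 3 per group, and the groups here follow the sample titles. The sample labels give passage 12 and the protocol passage 13. The labels do not say that replicates were separate cultures, so the spread between them may be technical.

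MicroRNAs are cut from long precursor transcripts. In the nucleus the Microprocessor, made of the nuclease Drosha and the RNA-binding protein DGCR8, releases a hairpin, which the nuclease Dicer trims in the cytoplasm together with the partner proteins TRBP or PACT, the product of Prkra. The mature strand then guides an Argonaute protein to messenger RNAs that match its seed, the bases near its 5′ end, and siRNAs delivered to cells are loaded into the same Argonaute proteins. The array probes report polyadenylated transcripts and not mature microRNAs.

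The study's designed siRNAs are shown because they define the groups. As the labels give them, 5′ to 3′, they are:
Gata4 siRNA 1: agagaauagcuucgaacca
Gata4 siRNA 2: ggauauggguguuccgggu
Gata4 siRNA 3: cugaauaaaucuaagacgc
Gata4 siRNA 4: ggacauaaucaccgcguaa
NT siRNA: ugguuuacaugucgacuaa
None of these 5 sequences, and none of their reverse complements, had the seed of miR-15a at bases 2 to 8.

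The microRNAs of Dleu2 are shown because Dleu2 is best known for carrying them. From RefSeq (GRCm38.p6), with the seed, bases 2 to 8, in capitals, the guide strands within the bounds of Dleu2 are:
mmu-miR-15a-5p, chr14:61632075-61632096, minus strand: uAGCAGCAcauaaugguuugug
mmu-miR-16-5p, chr14:61631936-61631957, minus strand: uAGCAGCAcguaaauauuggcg
The 2 strands share the seed AGCAGCA. The same miR-16-5p sequence also lies within the bounds of Smc4 on chromosome 3, as part of Mir16-2, so it is not tied to Dleu2 alone. The same seed is found in 10 of the 1679 mature mouse microRNA names in the table, among them a strand of another long non-coding RNA gene, C430049B03Rik, on the X chromosome, and miR-15b within the bounds of Smc4:
mmu-miR-322-5p, chrX:53054306-53054327, minus strand: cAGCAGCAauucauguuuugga
mmu-miR-15b-5p, chr3:69009775-69009796, plus strand: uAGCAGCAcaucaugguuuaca
The bounds of Dgcr8 hold microRNAs too, those of Mir1306 and of Gm24572, the gene of miR-3618. No strand of either has this seed, and the strands of Mir1306 are shown:
mmu-miR-1306-5p, chr16:18284288-18284310, minus strand: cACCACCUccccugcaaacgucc
mmu-miR-1306-3p, chr16:18284248-18284268, minus strand: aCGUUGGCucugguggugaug

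Dleu2 was far brighter in Gata4 siRNA cells. Its probe had intensities of 157.7, 166.6 and 151.3 on Gata4 siRNA arrays 1, 2 and 3, against 20.8, 14.8 and 25.3 on NT siRNA arrays 1, 2 and 3. The groups were separated by a gap of 126.0 intensity units, and the control arrays lay at the edge of detection: only 2 of the 3 exceeded the noise floor of 17.1, a level that 95% of the deposited values below 0 do not reach in size. The mean intensity was 158.5 ± 7.7 in Gata4 siRNA cells and 20.3 ± 5.3 in NT siRNA cells (SD, n = 3 each), a ratio of 7.81. After a background model, an offset of 16 and log2, the difference was 2.26 ± 0.13 (log2, Gata4 siRNA minus NT siRNA, ± SE), eighth by size among the 9081 tested probes with a positive difference. Its size depends on how the dim control values are treated, and it was 1.10 after adding 100 to each value and 3.00 with values floored at 1. Nearby, the Dleu2 bounds overlap the protein-coding genes Trim13 and Kcnrg in the RefSeq table, and neither gene has a named probe. The position of the Dleu2 probe was not used here, so which part of the transcript it reads, and whether that part belongs to the transcript carrying the microRNAs, is not known.

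The Dleu2 promoter is shown because this transcript had the largest change of the 3 genes. From RefSeq (GRCm38.p6, 250 bases before to 50 after the annotated start), with the motifs found in capitals:
Dleu2 promoter, chr14:61682324-61682623, minus strand: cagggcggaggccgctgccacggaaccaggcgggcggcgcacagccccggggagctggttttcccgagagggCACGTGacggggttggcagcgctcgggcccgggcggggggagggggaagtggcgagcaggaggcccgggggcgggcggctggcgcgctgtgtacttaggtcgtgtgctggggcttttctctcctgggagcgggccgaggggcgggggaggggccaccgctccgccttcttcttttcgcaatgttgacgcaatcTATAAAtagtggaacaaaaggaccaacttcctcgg
The capitals mark CACGTG, an E-box, which starts at base -178 and is held by 7.15% of 32851 promoters, and TATAAA, searched on the sense strand, which starts at base 16 after the start and is held by 8.32%; these 2 motifs were picked after the sequence had been read. Sites that GATA factors are known to bind were searched on both strands, in the spelling AGATAA with its variant AGATAG, and in the spelling TGATAA with its variant TGATAG. None was found in the windows of Dleu2, Dgcr8 or Prkra, while 29.8% of all promoters hold at least 1, so these letters are not in these windows and nothing follows about Gata4. All 3 windows are rich in G and C, at 69.0% for Dleu2, 74.3% for Dgcr8 and 67.3% for Prkra, against a median of 52.7% over all promoters.

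Dgcr8, the Microprocessor's RNA-binding subunit, was moderately higher. Its probe had intensities of 242.5, 238.7 and 260.6 on Gata4 siRNA arrays 1, 2 and 3, against 152.7, 161.3 and 143.2 on NT siRNA arrays 1, 2 and 3. The lowest Gata4 siRNA array stood 77.4 units above the highest NT siRNA array, and the means were 247.3 ± 11.7 and 152.4 ± 9.1 (SD, n = 3 each; Gata4 siRNA, then NT siRNA), a ratio of 1.62. On the log2 scale the difference was 0.65 ± 0.11 (SE).

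Prkra, which encodes PACT, a Dicer partner that is also known to activate the double-stranded RNA kinase PKR, was lower. Its probe had intensities of 713.9, 762.1 and 650.1 on Gata4 siRNA arrays 1, 2 and 3, against 1050.9, 1134.4 and 967.8 on NT siRNA arrays 1, 2 and 3. The groups did not overlap, with a gap of 205.7 units. The mean was 708.7 ± 56.2 in Gata4 siRNA cells and 1051.0 ± 83.3 in NT siRNA cells (SD, n = 3 each), a ratio of 0.674, and the log2 difference was -0.56 ± 0.12 (SE).

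**Figure D1:**
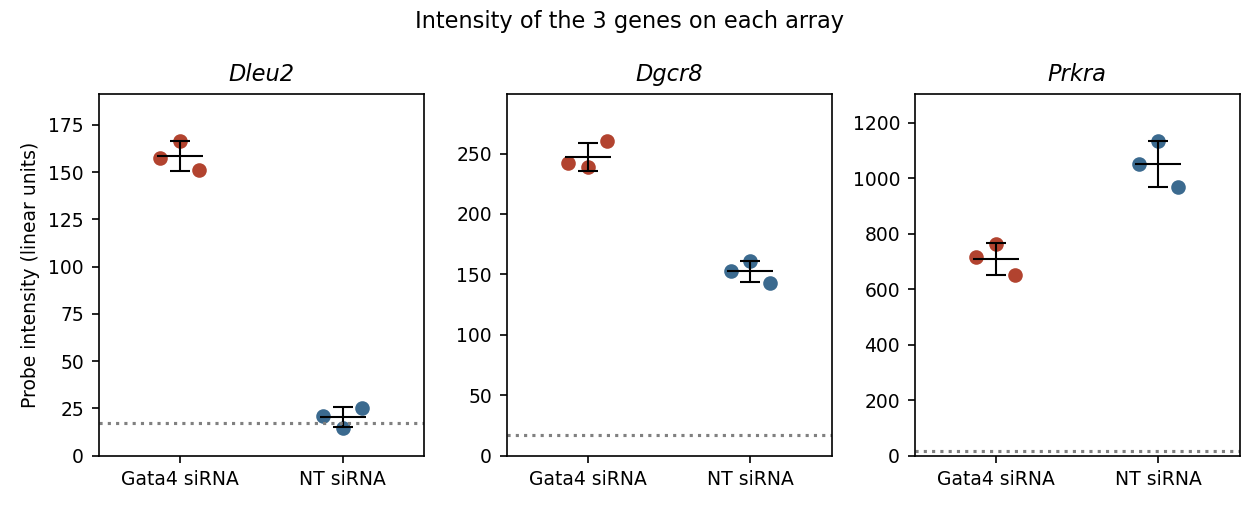
Probe intensity (linear units) of Dleu2, Dgcr8 and Prkra on each of the 6 arrays, Gata4 siRNA left and NT siRNA right, with the mean ± SD (n = 3 each) as black bars and the noise floor of 17.1 as a dotted line. The groups are separated in each gene; NT siRNA array 2 lies below the floor for Dleu2, at 14.8.

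The spread differed between the genes as well. The coefficient of variation of the intensity was 4.85% in Gata4 siRNA cells and 25.9% in NT siRNA cells for Dleu2, 4.73% and 5.94% for Dgcr8, and 7.93% in both groups for Prkra. For Dleu2, NT siRNA array 3 was the highest control and array 2 the lowest. These Dleu2 values lie around the noise floor. For Dgcr8 and Prkra this order was turned, with array 2 the highest control and array 3 the lowest. Within the Gata4 siRNA group, array 2 was the highest for Dleu2 and Prkra and array 3 for Dgcr8. NT siRNA array 3 stands apart on the whole table, with the lowest array weight (0.379, against 0.786 to 1.97 for the others). Without it the log2 differences were 2.345 for Dleu2, 0.61 for Dgcr8 and -0.62 for Prkra.

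Across the 17740 probes tested with limma, 8.78% passed an adjusted p under 0.05 (4.07% higher and 4.71% lower in Gata4 siRNA cells), and in 33.2% the groups did not overlap (17% higher and 16.2% lower). All 3 genes passed and were separated, which their source in a table of called probes largely fixes. The count was 1 (Dleu2) when Gata4 siRNA array 1 or 2, or NT siRNA array 1, was left out, and 2 (Dleu2 and Dgcr8) when Gata4 siRNA array 3 or NT siRNA array 2 was. It was 3 without NT siRNA array 3. With values floored at 1 it was 2, as Prkra no longer passed, and with a replicate block it was 1 (Dleu2). No named probe reads Gata4, so its own level, and with it the knockdown, was not checked here. Gata4 lies on chromosome 14, as does Dleu2, with 50 genes between them in the RefSeq table, 16 of them protein-coding. Of 16 Sertoli cell markers 2 were named: Sox9, with intensities of 1369.2 to 1538.7 in Gata4 siRNA cells and 919.2 to 984.2 in NT siRNA cells, and Inhbb, deposited under a predicted locus, with 1365.7 to 1397.0 in Gata4 siRNA cells and 1829.9 to 2236.0 in NT siRNA cells. Of 22 markers of other testis cell types 3 were named, Acta2 and Tagln of peritubular cells and Cd14 of macrophages, and all 3 were above the floor on every array, at log2 differences of 0.53 ± 0.12, 0.93 ± 0.15 and 0.39 ± 0.12. The part of these markers in the results was not tested. Fewer cells of a type and less RNA per cell cannot be told apart in such bulk samples.

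Other members of the small RNA pathway are seen only through the same table, so a gene outside that table cannot be named. Of 83 genes in lists of nuclear processing, Dicer and other RNA-binding proteins, the Argonaute complex, decay, tailing and the piRNA pathway, 15 were named. Among these 15, Dgcr8 and Prkra included, 2 rose and 3 fell (10 did not pass); their median log2 difference was 0.29, against 0.01 over all probes tested and 0.27 over the 1991 named genes tested. The authors chose all these named genes on these arrays, so the counts are not independent evidence of a direction. The named genes as a whole held 515 that rose, 587 that fell and 889 that did not pass. Drosha, Dicer1, Tarbp2, Xpo5 and the Argonaute genes themselves are not among the named genes.

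In nuclear processing 5 of 14 genes were named. Beside Dgcr8, Hnrnpa1, an RNA-binding protein known to help process certain primary microRNAs, fell by 0.51 ± 0.13 (limma adjusted p = 0.0467), with intensities of 190.3, 165.1 and 189.6 in Gata4 siRNA cells against 285.6, 273.2 and 235.6 in NT siRNA cells. The RNA-binding protein Ilf2 was at 0.25 ± 0.11 and the cap-binding subunit Ncbp2 at 0.37 ± 0.12, neither past the threshold (adjusted p = 0.186 and 0.104).

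The list drawn up for Dicer and its partners also holds RNA editing enzymes and other RNA-binding proteins, not all of them established partners. Of its 8 genes 4 were named, and they differed in direction. Adarb1, an enzyme that edits adenosine in double-stranded RNA, rose by 0.73 ± 0.11 (adjusted p = 0.0094). Its probe had intensities of 1679.9, 1679.9 and 1764.5 in Gata4 siRNA cells against 1007.4, 1053.0 and 1001.7 in NT siRNA cells, and a second, dimmer probe rose by 0.60 ± 0.14. Stau1, which binds structured RNA and takes part in its transport and decay, fell by 0.48 ± 0.12 (adjusted p = 0.0426), with 1027.7, 1042.8 and 959.1 in Gata4 siRNA cells against 1490.8, 1303.1 and 1446.5 in NT siRNA cells. The related editing enzyme Adar gave no single answer: its brighter probe was at 0.34 ± 0.12 (adjusted p = 0.104), while its dimmer probe fell by 0.67 ± 0.13 (adjusted p = 0.0239). The dimmer Adar probe had intensities of 48.1, 56.3 and 64.6 in Gata4 siRNA cells against 94.9, 110.1 and 91.5 in NT siRNA cells, so both probes separated the groups, in opposite directions.

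Further down the pathway no named gene passed in the main setting. Of the 1991 named genes tested 889 did not pass either, so nothing particular to these steps is read from this. It also depends on the setting, as 12 of the 15 named pathway genes passed with 100 added to each value. In the Argonaute complex list the 3 named of 20 genes were Gemin4, a component of a complex that also holds Argonaute, at 0.43 ± 0.14, and the adaptor proteins Wtip and Limd1 at 0.35 ± 0.12 and 0.29 ± 0.11. In decay the deadenylase subunit Pan2 was at -0.39 ± 0.11 and Pabpc1, a poly(A)-binding protein read by a probe deposited under a predicted locus, at -0.33 ± 0.12. Dis3l2, a nuclease that degrades tailed microRNA precursors, was at -0.56 ± 0.16. Of these 6 genes Dis3l2 had the lowest adjusted p, 0.062, and Limd1 the highest, 0.138. All 15 named pathway genes had an unadjusted limma p under 0.05, which the authors' choice of them on these arrays largely fixes and which supports none of them. None of the 12 genes listed for the piRNA pathway, which guards germ cells against transposons, was named.

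**Figure D2:**
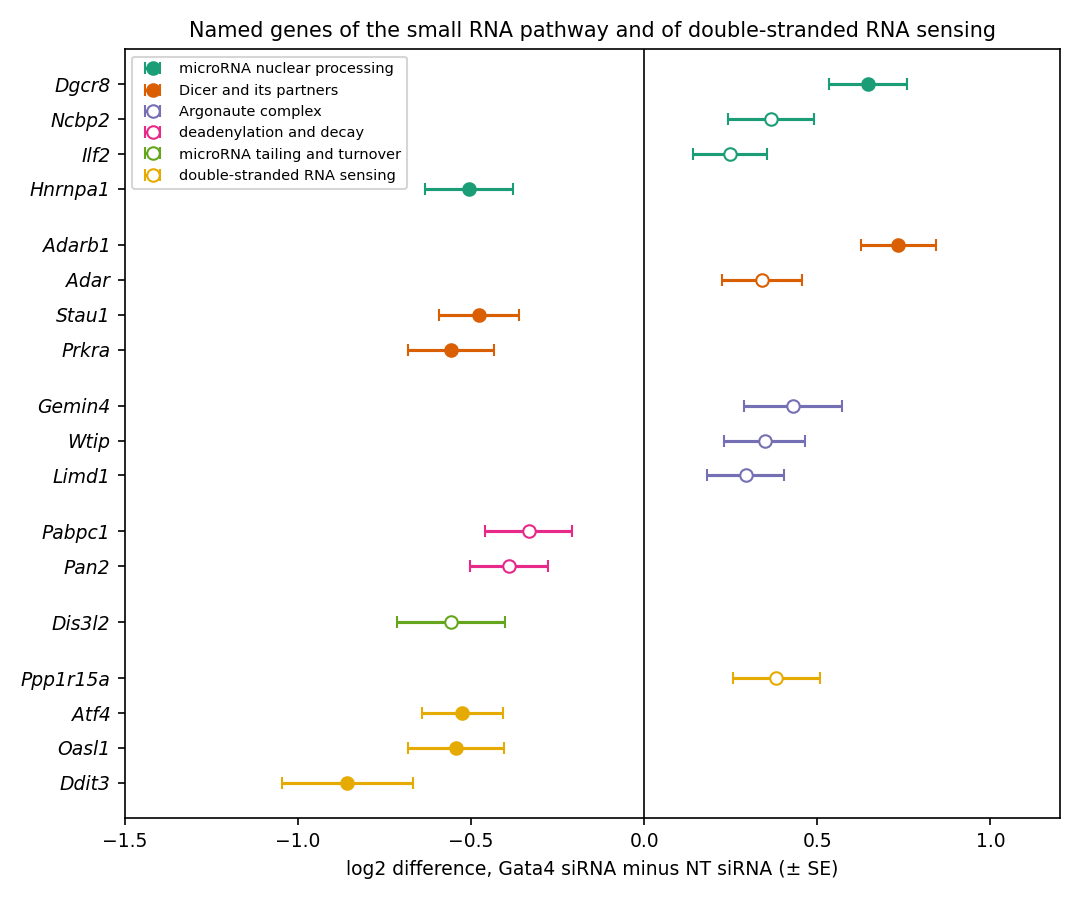
Log2 difference, Gata4 siRNA minus NT siRNA, with SE bars (3 arrays per group) for named genes of each pathway list, 1 probe per gene, leaving out 1 gene of nuclear processing; filled points passed an adjusted p under 0.05 and open points did not. Dgcr8 at 0.65 and Adarb1 at 0.73 lie highest among the small RNA genes, and Prkra at -0.56 and Dis3l2 at -0.56 lowest.

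PACT also stands in the sensing of double-stranded RNA, where it activates PKR, a kinase that slows translation and favours the transcription factor ATF4. Of 16 genes listed for this arm 4 were named, and 3 of these fell, while 1 did not pass; the median was -0.53. Over all tested probes 4.71% were lower, and 587 of the 1991 named genes tested fell, so nothing particular to this list is read from the count. The calls of Atf4, Ddit3 and Oasl1 were lost with values floored at 1 and with a replicate block. Ddit3, a stress transcription factor downstream of ATF4, fell by 0.86 ± 0.19 (limma adjusted p = 0.0325), with intensities of 502.8, 665.9 and 830.8 in Gata4 siRNA cells against 1326.6, 1053.9 and 1223.3 in NT siRNA cells. Atf4 fell by 0.52 ± 0.12 (adjusted p = 0.034), with 558.2, 508.6 and 495.7 in Gata4 siRNA cells against 715.7, 816.3 and 737.7 in NT siRNA cells. Oasl1, an interferon-induced gene of the oligoadenylate synthetase family, fell by 0.54 ± 0.14 (adjusted p = 0.0487), and its dimmer probe fell by 0.97 ± 0.18. Its brighter probe had 174.7, 142.1 and 157.4 in Gata4 siRNA cells against 239.9, 267.3 and 206.8 in NT siRNA cells. Ppp1r15a, a phosphatase subunit that ends the PKR signal, was at 0.38 ± 0.13 (adjusted p = 0.0969). The kinase gene Eif2ak2 is not among the named genes. Whether the levels of Atf4, Ddit3, Oasl1 or Ppp1r15a are tied to Prkra or to PKR was not tested.

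The host of another microRNA with the seed of miR-15a went the opposite way to Dleu2. RefSeq places a microRNA within the bounds of 737 genes, 6 of which hold a microRNA with the seed AGCAGCA. Bounds were compared without regard to strand, so a gene counted as a host need not carry the microRNA in its own transcript. Of those 6 only Dleu2 and C430049B03Rik are named, and the second was singled out after its values were seen. C430049B03Rik, whose bounds hold Mir322, Mir351 and Mir503, fell by 0.99 ± 0.18 (limma adjusted p = 0.0167). Its brighter probe had intensities of 133.7, 141.3 and 214.2 in Gata4 siRNA cells against 305.1, 346.8 and 350.5 in NT siRNA cells, so Gata4 siRNA array 3 stood nearest the controls and the groups did not overlap. A second probe of C430049B03Rik, with 25.1, 27.0 and 45.7 in Gata4 siRNA cells against 76.8, 66.7 and 71.6 in NT siRNA cells, fell by 0.88 ± 0.17. Smc4, whose bounds hold miR-15b and another copy of miR-16-5p, has no named probe. Of the 85 named hosts of any microRNA, 23 rose and 25 fell (37 did not pass, median -0.27). Over the 1991 named genes tested 515 rose and 587 fell, so nothing particular to hosts is read from these counts. Around 0 the host values leave a gap, from -0.27 to 0.28. The median lies at the edge of this gap, so no shift of the hosts is read from it.

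Copz2, a coatomer subunit gene that hosts Mir152, fell by 0.84 ± 0.16 (adjusted p = 0.0181), with 672.0, 740.4 and 926.1 in Gata4 siRNA cells against 1589.0, 1336.3 and 1291.8 in NT siRNA cells. Of its 4 probes 3 fell and the other was at -0.74 ± 0.21 (adjusted p = 0.0651). Pank1, a pantothenate kinase gene that hosts Mir107, fell by 0.60 ± 0.14 (adjusted p = 0.0347), and Evl, which hosts Mir342, was at -0.50 ± 0.14 (adjusted p = 0.0698).

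Of 22 genes reported as targets of miR-15 and miR-16, mostly from human cells, 6 were named, and they moved both ways. Ccne1 and Ppm1d rose and Ccnd2 fell, while for 3 the adjusted p was not under 0.05. The 6 targets had a median log2 difference of 0.37. For comparison, 515 of the 1991 named genes tested rose and 587 fell, and their median was 0.27. Nothing particular to the reported targets is therefore read from these counts or from the median. Cyclin E, Ccne1, which drives entry into S phase, rose by 0.70 ± 0.16 (adjusted p = 0.0327), with 522.5, 733.0 and 571.3 in Gata4 siRNA cells against 346.8, 340.8 and 410.0 in NT siRNA cells. The phosphatase Ppm1d, a brake on p53, rose by 0.58 ± 0.12 (adjusted p = 0.028), with 907.2, 985.3 and 803.2 in Gata4 siRNA cells against 590.3, 607.8 and 587.5 in NT siRNA cells, and its second probe, deposited under a predicted locus, by 0.57 ± 0.13. The groups did not overlap in any of the 6 named targets, nor in any of the 30 named genes of all lists, against 33.2% of all tested probes, and the authors' selection of these genes largely fixes this.

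Cyclin D2, Ccnd2, fell by 0.95 ± 0.16 (adjusted p = 0.014). Its brightest probe had 1326.6, 1035.7 and 1424.7 in Gata4 siRNA cells against 2717.9, 2544.9 and 2100.0 in NT siRNA cells, and its 2 other probes fell by 1.08 ± 0.14 and by 0.66 ± 0.12. Among those that did not pass, cyclin D1, Ccnd1, was at 0.40 ± 0.13, the phosphatase Cdc25a at 0.34 ± 0.11 and the angiogenic factor Vegfa at -0.27 ± 0.11 (adjusted p = 0.0942, 0.0931 and 0.161). Mature miR-15 and miR-16 were not measured.

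**Figure D3:**
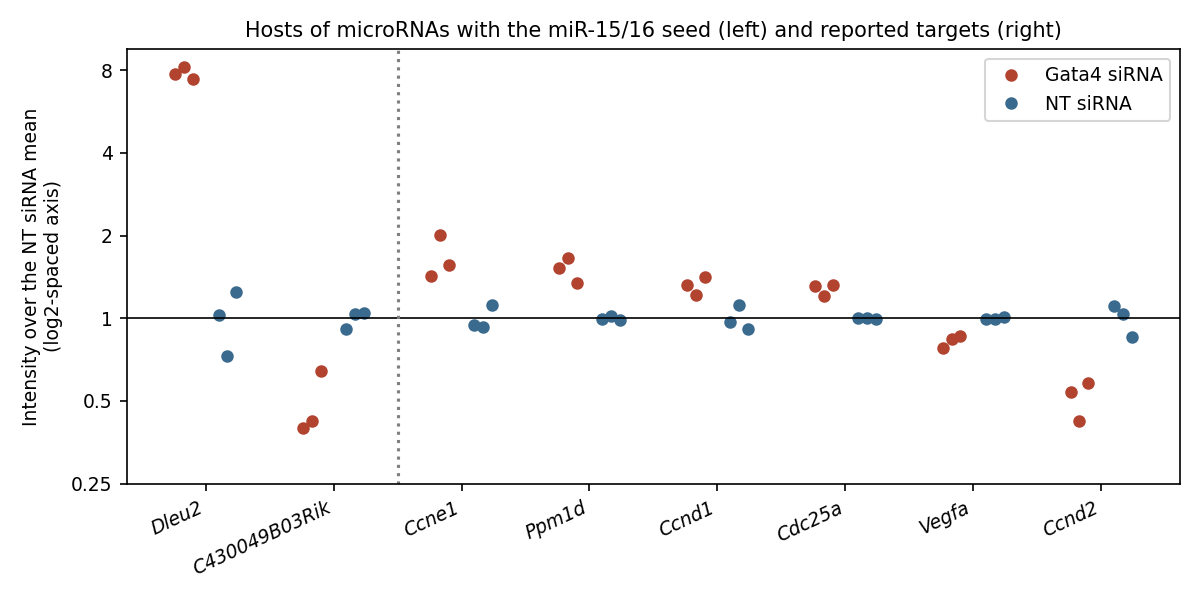
Intensity on each array divided by the mean of the 3 NT siRNA arrays (log2-spaced axis) for the named hosts of microRNAs with the seed AGCAGCA, left of the dotted line, and for the 6 named reported targets, right of it, Gata4 siRNA left of NT siRNA for each gene. Dleu2 lies far above its controls and C430049B03Rik below them, at ratios of mean intensity of 7.81 and 0.488; among the targets Ccne1 lies highest and Ccnd2 lowest.

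Dleu2 also had the largest positive difference among the named long non-coding RNA genes. Of these 14 genes 4 rose and 5 fell (5 did not pass, median -0.53), and the next largest rise after Dleu2 was 5930430L01Rik at 0.72 ± 0.14. Over the 1991 named genes tested 515 rose and 587 fell, so nothing particular to this class is read from the counts. Those that fell furthest were Snhg18, 2410006H16Rik at -1.21 ± 0.26 and Dubr at -1.03 ± 0.23; apart from Dleu2 and Neat1, these genes were picked after their values were seen. Neat1, the scaffold RNA of nuclear paraspeckles, fell by 0.87 ± 0.14 (adjusted p = 0.0124), with 447.2, 480.7 and 525.2 in Gata4 siRNA cells against 1006.8, 762.7 and 937.0 in NT siRNA cells. Snhg18, a host of small nucleolar RNA, fell by 1.24 ± 0.30 (adjusted p = 0.04) with a wide spread in Gata4 siRNA cells, 1278.5, 1407.0 and 2924.0, against 4887.9, 3546.9 and 4067.4 in NT siRNA cells. Gata4 siRNA array 3 was thus nearest the controls for Snhg18, as for C430049B03Rik and Copz2.

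**Figure D4:**
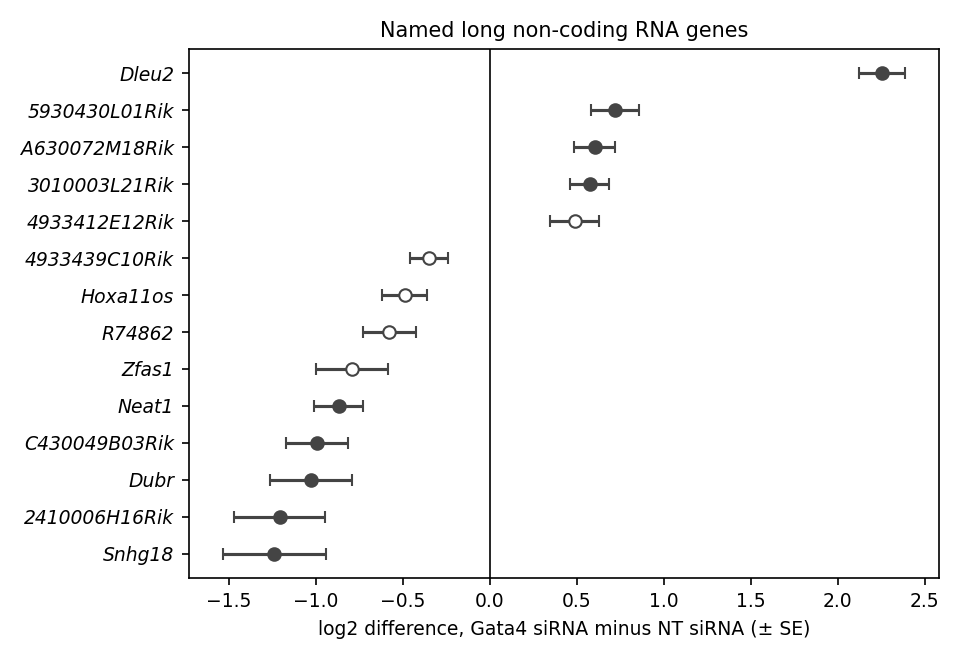
Log2 difference, Gata4 siRNA minus NT siRNA, with SE bars (3 arrays per group) for the 14 named long non-coding RNA genes, 1 probe per gene; filled points passed an adjusted p under 0.05. Dleu2 at 2.26 stands apart from the next, 5930430L01Rik, at 0.72.

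Of 11 genes listed for the Dleu2 locus only Ebpl, a relative of a sterol isomerase, was named. Its brighter probe was at -0.51 ± 0.13 (adjusted p = 0.0548), with 1253.1, 1386.5 and 1648.1 in Gata4 siRNA cells against 2089.1, 2045.9 and 1934.5 in NT siRNA cells, and its dimmer probe fell by 0.57 ± 0.13 (adjusted p = 0.0375). Of the 22 called genes among these lists and the long non-coding RNAs, the 3 members included, the number that kept the call was 2, 1 and 15 on leaving out Gata4 siRNA array 1, 2 and 3, and 4, 7 and 18 on leaving out NT siRNA array 1, 2 and 3. Dleu2 was among those that kept it each time an array was left out. With a replicate block 8 of the 22 kept the call, and Hnrnpa1, Stau1, Atf4, Ddit3, Oasl1, Ccne1, Ppm1d and Pank1 were among those that lost it. With values floored at 1 the number was 10, and with no filter 14.

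The named genes whose pattern over the 6 arrays was most like each member were taken by Pearson's r of log2 values among 1990 other named genes. These r values are a description. The arrays form 2 separate groups and all these genes had been called on them, so high values are common: 337 genes had r above 0.95 with Dleu2, 268 with Dgcr8 and 92 with Prkra. Most like Dleu2 were Mmp10, Afmid and H2-M3, at r of 0.998, 0.997 and 0.997. With each group's mean removed, r was 0.865, 0.782 and 0.878. Most like Dgcr8 were Ercc3, Ifi35 and Nupl2, at 0.997, 0.996 and 0.996, and 0.981, 0.886 and 0.947 with the means removed. Most like Prkra were Tmed3, Ccdc61 and the predicted locus LOC100045697, at 0.999, 0.999 and 0.996, and 0.987, 0.985 and 0.965 with the means removed. These genes were picked for the highest r over the same 6 arrays, a choice that favours high values with the means removed too. For none of the 3 members are those values separate support for a likeness within groups. For Dleu2 the values with the means removed also rest mainly on NT siRNA arrays 2 and 3, at intensities of 14.8 and 25.3 around the noise floor of 17.1, and say little.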

How the data were processed

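RNA of 6 samples, labelled with biotin, was hybridized to Illumina MouseWG-6 version 2.0 BeadChips, per the labels' protocols. The submitters' processing notes name GenomeStudio; its release, the background correction and the normalization were not found in these sources. The deposited intensities are linear, 37.1% of them are below 0, and the sorted columns differ by at most 1.0. Left unused were 18 further per-array columns whose headings fit none of the labels. Precision is limited by having 3 arrays in a group.

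Values were corrected by normexp with a background mean of 0 and an SD of 9.40 taken from the values below 0, given an offset of 16 and put on a log2 scale, which shrinks the difference of dim probes. The 17740 probes above the noise floor of 17.1 on at least 3 of 6 arrays entered lmFit and eBayes (limma 3.58.1, R 4.3.3), two-sided. Benjamini-Hochberg adjustment ran over all these probes, at a threshold of 0.05. The code was tested on simulated data. Plots were made in matplotlib 3.10.9.

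Symbols are those of the table the authors deposited, updated by Entrez number through RefSeq (GRCm38.p6): of 2415 probes 1740 were current, 468 were updated, 195 kept their symbol and 12 were left out. That table's fold changes and p-values were not used. The brightest probe stands for a gene. The text names the 3 members, the other list genes that have a name, and for each member the 3 genes with the highest r over the arrays; genes outside this rule are said to be chosen after their values were seen, or are markers. The values of 1 gene of nuclear processing are not reported here, though it is in the counts. The members and lists were chosen with earlier results of these data known. Alternatives changed how dim values were handled, the filter, the normalization, the variance model and the array weights, added a replicate block, or left out each array.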

Additional observations from a re-analysis of the deposited data

How the results depend on the processing

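The direction of the 3 genes was the same in every alternative run. The difference of Prkra stayed within its replicate spread, from -0.62 to -0.50 without single arrays and from -0.57 to -0.51 in the others. Its call was less stable. It was lost with values floored at 1, with a replicate block, and on leaving out any single array but NT siRNA array 3. Dleu2 was not tested when all 6 arrays had to exceed the floor. Its log2 difference was 3.00 with values floored at 1, 1.91 and 1.10 with 30 and 100 added to each value, 1.74 with normexp fitted by maximum likelihood and 1.56 with an offset of 50, and 2.16 to 2.345 without single arrays. Dgcr8 was at 0.46 with 100 added and 0.56 with an offset of 50, and at 0.61 to 0.68 without single arrays. A change in the constant alters the scale itself. The count of changed probes, 1558, was 734 with values floored at 1, 2497 with 100 added, 2384 with a trended, robust prior, 3079 with array weights and 257 to 1602 without single arrays. Of the small RNA list genes 5 passed, against 2 with values floored at 1, 12 with 100 added, 8 with an offset of 50, 9 with a trended, robust prior and 9 with array weights. Without single arrays limma called 0 to 4 of them. At an unadjusted limma p under 0.05 there were 11 of 15 where it called 0 (without Gata4 siRNA array 2), and 9 of 15 without NT siRNA array 1. The authors' choice of these genes on these arrays largely fixes such counts, which support none of them.

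The replicate numbers gave no sign of pairing, as the deviations of same-numbered arrays correlated at -0.088 to -0.011. Gata4 siRNA arrays 1, 2 and 3 correlated at 0.215, 0.151 and 0.147 with NT siRNA arrays 2, 3 and 1. With NT siRNA arrays 3, 1 and 2 they were at -0.123, -0.107 and -0.134. The labels name no pairing, and one in another order was not tested. With a replicate block 736 probes passed, with 1 of the 3 genes and 1 small RNA list gene among them. Of the 3 genes 1 to 3 passed without single arrays. Each member has 1 probe, so the planned change of probe was not run. Dim values limit Dleu2 most, since its controls lie near the noise floor. The causes of these shifts were not tested, apart from the change of scale.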
